A study of Drosophila melanogaster with 46 samples.

Results

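The muscle contractile genes examined here are 10 genes that encode the moving parts of the fly sarcomere: the myosin heavy chain Mhc, the myosin light chains Mlc1 and Mlc2, the muscle actins Act57B, Act87E and Act88F, the troponins up and wupA, and the tropomyosins Tm1 and Tm2. They were chosen by name from the 17490 genes of a table of read counts, and all 10 passed the filter on low counts that left 9969 genes for testing. RNA was sequenced from pooled heads of males and females in 46 libraries of 4 groups. WT was the strain Canton-S w1118 (iso1CJ) at Day 27, with 10 libraries. The sleep mutants inc1 and wakeD2, which carry mutations in insomniac and wide awake, were also taken at Day 27, with 12 libraries each, and had been backcrossed to the WT strain. WT-old was the WT strain at Day 49, with 12 libraries. All flies were kept in cycles of light and dark of 12 h each. Heads were collected every 4 h from ZT0 to ZT44, where ZT0 is lights on of the first day, with 1 library per group and timepoint, so that the timepoints served as the replicates of a group. WT at ZT28 and ZT40 was not analysed here.

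Muscle shortens when myosin heads of the thick filament walk along the actin of the thin filament. Each myosin carries an essential and a regulatory light chain, and tropomyosin and the troponin complex on the thin filament hold contraction back until calcium is released. A fly head holds no flight muscle, but it does hold the muscles that move the mouthparts, the antennae and the pharynx, and the front end of the dorsal vessel, the fly's heart tube.

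Mhc (FBgn0264695) lies on chromosome 2L at 16766566 to 16788766 of the Release 6 assembly and has 21 annotated transcripts, which share 1 gene through alternative splicing. Mlc1 (FBgn0002772), the essential light chain, lies on 3R at 27657078 to 27660177, and Mlc2 (FBgn0002773), the regulatory light chain, on 3R at 30171438 to 30174551. Of the actins, Act57B (FBgn0000044) lies on 2R at 20944021 to 20946431, Act87E (FBgn0000046) on 3R at 13425983 to 13428375 and Act88F (FBgn0000047) on 3R at 15439969 to 15442177. Act57B and Act87E are actins of body and head muscles, and Act88F is the actin of the indirect flight muscle. The gene up (FBgn0004169), troponin T, lies on X at 13593474 to 13602578 with 18 transcripts, and wupA (FBgn0283471), troponin I, on X at 18105568 to 18116922 with 13. Tm1 (FBgn0003721) and Tm2 (FBgn0004117) are neighbours on 3R, at 15278220 to 15308779 and 15310193 to 15315197, and Tm1 also makes cytoskeletal tropomyosins outside muscle. Counts are per gene, so the transcripts of a gene were not told apart. The coding sequences of the 3 actins are close to each other and to those of other fly actins, and how reads that match several genes were counted is not stated, so the split of reads between the actins is uncertain.

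Library totals ranged from 12630462 to 29802881 counts, and 3 counts corresponded to at most 0.238 CPM, the count of a gene scaled to a common library total. The mutated genes followed the labels: inc was at 8.46 to 15.2 CPM in inc1 against 65.9 to 104 in WT, and wake at 35.7 to 52.4 CPM in wakeD2 against 66.2 to 78.9 in WT. Photoreceptor markers, which define the head, summed to 41058 CPM or more in every library. RNA of tissues outside the head was also present and was unequal between groups. The median of 13 accessory gland genes was above 1 CPM in 11 of 12 wakeD2 libraries, 2 of 10 WT libraries, 4 of 12 inc1 libraries and 1 of 12 WT-old libraries, and their sum reached 1272 CPM in wakeD2, 272 in inc1, 50.1 in WT and 52.3 in WT-old. All 10 testis markers and all 7 tested midgut markers were also higher in wakeD2 than in WT (edgeR quasi-likelihood, adjusted p under 0.05). The sum of the 4 trunk Hox genes reached 15.7 CPM in wakeD2 against 5.75 in WT, and ovary markers summed to at most 2.44 CPM anywhere. In WT-old, the yolk protein genes Yp1 to Yp3 of the female fat body summed to 43315 to 66246 CPM at the light hours but to 114.6 to 7300 CPM at 12, 16 and 20 h, where WT stayed at 48237 to 72613 CPM. The male dosage compensation RNAs roX1 and roX2 summed to 620 to 836 CPM at the light hours of WT-old and to 1431 to 1572 CPM at 12, 16 and 20 h. In WT they summed to 680 to 880 CPM. The share of the sexes in the WT-old pools and the hour of the day therefore cannot be told apart.

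The 10 genes together held 0.316% to 0.477% of all counted reads, with a median of 0.37%. Per kilobase of annotated exon, the WT level was highest for Act57B, at 621 ± 81.5 RPKM (CPM divided by the exon length in kilobases, SD, n = 10), followed by Mlc2 at 214 ± 7.91 and Mhc at 133 ± 8.03 RPKM. Then came up at 96.1 ± 4.83, wupA at 87.1 ± 6.55, Mlc1 at 71.7 ± 3.38 and Tm2 at 64.6 ± 2.68 RPKM. Act87E at 35.2 ± 5.07 and Tm1 at 28.6 ± 0.812 RPKM were lower, and Act88F at 2.08 ± 0.693 RPKM was the lowest. Among neighbours in this order, the ranges over the WT libraries overlapped for up and wupA, for wupA and Mlc1, and for Act87E and Tm1. The exon length counts every annotated exon of a gene once, which lowers the per-length level of genes with many alternative exons, such as Mhc and Tm1.

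The flight muscle actin was low, at 1.14 to 6.86 CPM, or 20 to 150 counts, over the 46 libraries. The other genes listed for flight muscle differed widely in level, and whether each is restricted to flight muscle was not tested. Flightin (fln), a flight muscle thick filament protein, was listed at 0 to 0.784 CPM and TpnC4, the flight muscle troponin C, at 0.208 to 1.29 CPM. Myofilin (Mf) at 422 to 969 CPM, the myosin light chain kinase Strn-Mlck at 130 to 226 CPM and the troponin C gene TpnC41C at 15.0 to 37.9 CPM were far more abundant.

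**Figure D1:**
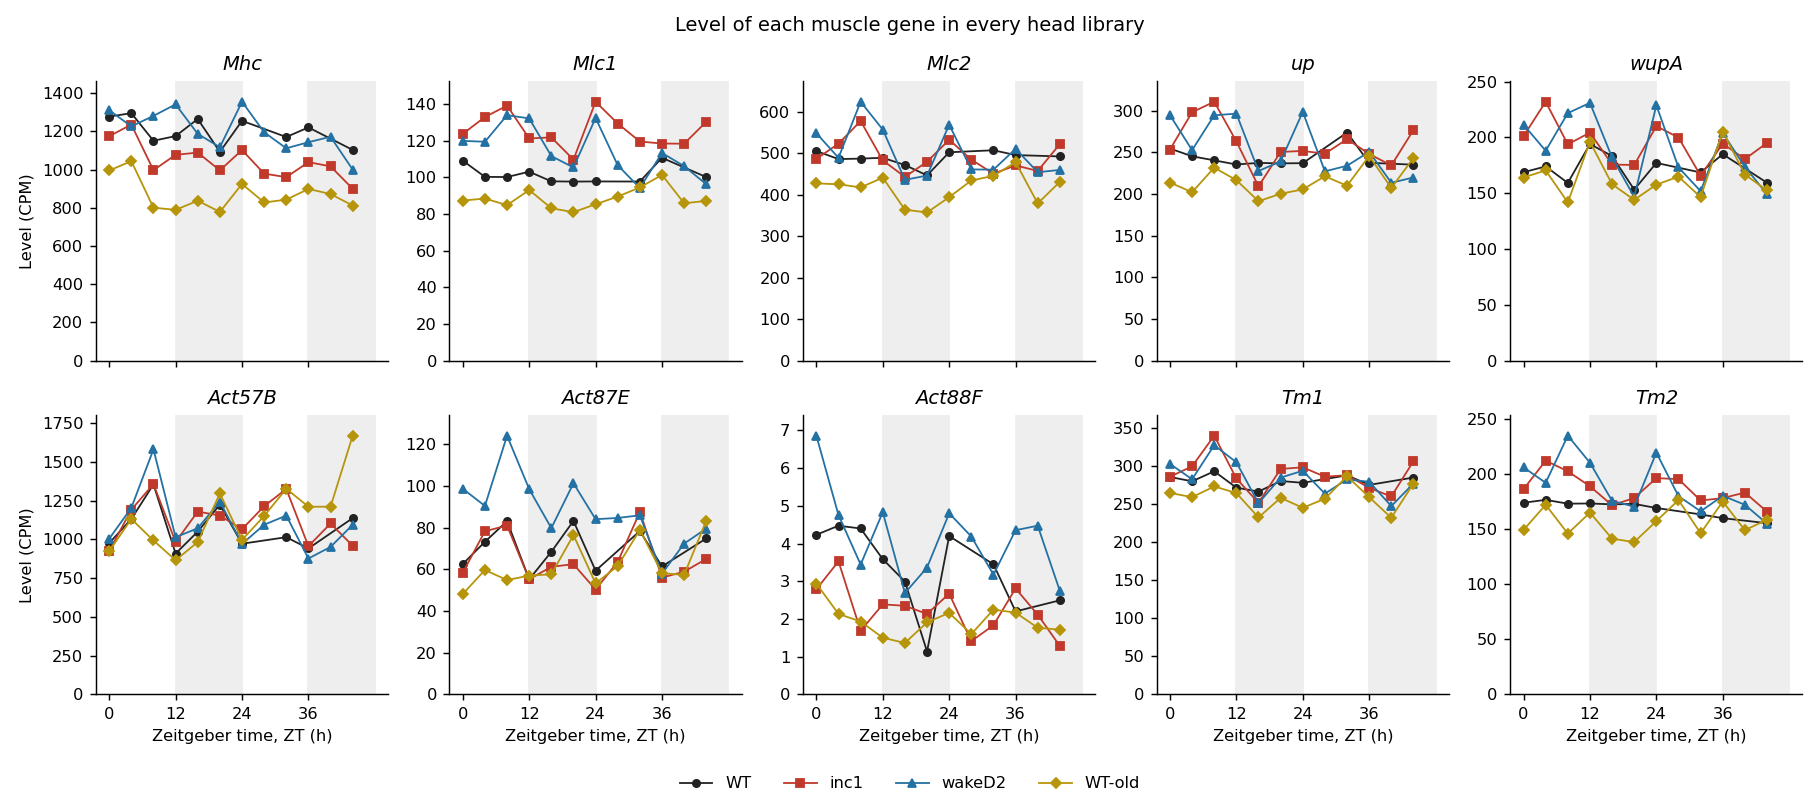
Level of each of the 10 muscle genes in CPM (y axis, from 0) against Zeitgeber time in h (x axis) in the 4 groups, 1 point per library, with the dark hours shaded. Mhc of WT-old lay below every WT library, and Mlc1 of inc1 lay mostly above WT, whereas Act57B of the 4 groups was intermingled and moved within each day.

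The first comparison asked how the level averaged over the day differed between the sleep mutant inc1 and WT at the same age. In inc1, myosin heavy chain was lower and its essential light chain higher. Of the 10 genes, 5 passed the test (edgeR quasi-likelihood, adjusted p under 0.05 over all genes tested), 3 higher and 2 lower, against 33.4% of all genes tested, 15.1% higher and 18.4% lower. The median log2 fold change of the 10 genes was 0.06, and that of all genes 0.02. In bulk RNA, fewer muscle cells per head and less RNA per muscle cell cannot be told apart. Markers of other head cells also moved in inc1: 4 of 7 photoreceptor markers were lower and 0 higher (median log2 fold change -0.30, with ninaC at -0.63 and trp at -0.52), and 3 of 5 glia markers were higher and 0 lower (median 0.15). Of 6 head fat body markers 1 was higher, apolpp at 0.39, and 0 were lower (median 0.60). The 6 summed to 76935 to 131182 CPM in inc1 against 55286 to 79563 CPM in WT. Of the male dosage compensation RNAs, roX1 was lower (-0.30). Their part in the muscle values was not tested.

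Mlc1 ranged from 97.6 to 111 CPM in WT (median 100.1) and from 110 to 141 CPM in inc1 (median 123). The ranges touched, and 11 of the 12 inc1 libraries lay above every WT library. Mlc1 rose by 0.31 ± 0.05 on the log2 scale (SE, adjusted p = 9.33e-07) and was higher in inc1 at 10 of the 10 timepoints that all groups share. Mhc ranged from 1093 to 1296 CPM in WT (median 1199) and from 900 to 1236 CPM in inc1 (median 1028), and 9 of the 12 inc1 libraries lay below every WT library. The log2 fold change of Mhc was -0.21 ± 0.04 (adjusted p = 4.42e-05), with inc1 lower at 10 of 10 shared timepoints. Mlc2, the regulatory light chain, ranged from 447 to 507 CPM in WT and from 443 to 578 CPM in inc1, and its log2 fold change of 0.03 ± 0.05 did not pass the test (adjusted p = 0.705).

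On the thin filament, troponin I and a tropomyosin were higher in inc1. The troponin I gene wupA ranged from 153 to 194 CPM in WT (median 171) and from 166 to 232 CPM in inc1 (median 195), with a log2 fold change of 0.17 ± 0.06 (adjusted p = 0.0131). Tm2 ranged from 155 to 176 CPM in WT (median 173) and from 166 to 212 CPM in inc1 (median 185), with a log2 fold change of 0.14 ± 0.05 (adjusted p = 0.0238). Both ranges overlapped. Troponin T (up), at a log2 fold change of 0.10, and Tm1, at 0.06, did not pass (adjusted p = 0.126 and 0.114).

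Of the actins, the flight muscle actin fell from a median of 3.52 CPM in WT (1.14 to 4.47) to 2.24 CPM in inc1 (1.29 to 3.53), a log2 fold change of -0.53 ± 0.15 (adjusted p = 0.00562), and 11 of 12 inc1 libraries lay under the WT median. Act87E (log2 fold change -0.10, adjusted p = 0.318) and Act57B (0.06, adjusted p = 0.536) did not pass. In the 8 WT and 8 inc1 libraries with little accessory gland RNA, Act87E was lower in inc1 (log2 fold change -0.18, adjusted p = 0.0384), and the 5 calls above all held there. In the first sampling day alone, Mlc1 was the call that remained, and Mhc, at -0.14, had an adjusted p of 0.0989. With the second day alone, Mhc (-0.25), Mlc1 (0.33) and Act88F (-0.60) passed.

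The ratio of Mlc1 to Mhc within a library does not depend on the scaling between libraries. The 2 genes differ in exon length, at 1414 bases for Mlc1 and 9058 for Mhc. Whether exon length or RNA quality has a part in the values of inc1 was not tested. The ratio was 0.0773 to 0.0907 in WT and 0.105 to 0.145 in inc1, with no overlap (means 0.0846 ± 0.00542 and 0.12 ± 0.013, SD, n = 10 and 12). In wakeD2 it was 0.0846 to 0.104 (median 0.0952) and in WT-old 0.0846 to 0.118 (median 0.105). Both ranges overlapped that of WT, but both medians lay above the highest WT value of 0.0907. This ratio was chosen after the values had been seen and is given without a test.

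**Figure D2:**
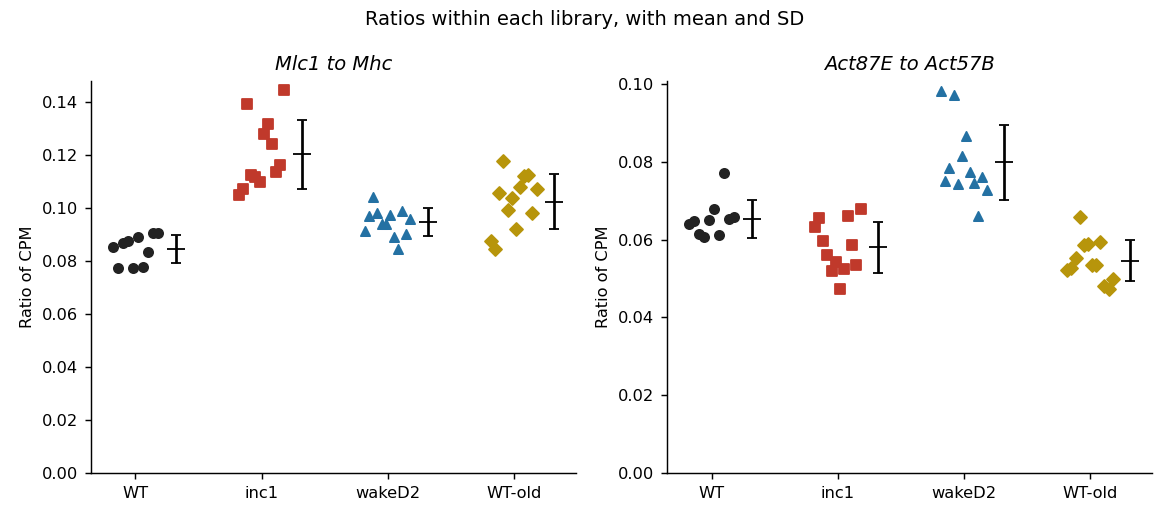
Ratio of Mlc1 to Mhc (left) and of Act87E to Act57B (right), each from CPM of the same library (y axis, from 0), in the 4 groups (x axis), 1 point per library, with the mean and SD beside the points. The inc1 libraries at 0.105 to 0.145 lay above every WT library in the left panel, and the wakeD2 libraries reached 0.0982 in the right panel against 0.0772 in WT.

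In wakeD2, 3 of the 10 genes were higher than in WT and 0 lower, against 23.7% of all genes tested, 12.1% higher and 11.6% lower. These were the actin Act87E, Mlc1 and Tm2. Act87E ranged from 55.2 to 83.2 CPM in WT (median 70.8) and from 58.0 to 124 CPM in wakeD2 (median 85.2), with 8 of 12 wakeD2 libraries above every WT library and a log2 fold change of 0.35 ± 0.08 (adjusted p = 0.000923). Mlc1 ranged from 94.1 to 134 CPM in wakeD2 (median 112), with a log2 fold change of 0.17 ± 0.05 (adjusted p = 0.00414). Tm2 ranged from 155 to 235 CPM in wakeD2 (median 180.0), with a log2 fold change of 0.15 ± 0.05 (adjusted p = 0.0144). Each of these ranges overlapped that of WT.

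The other thick filament genes of wakeD2 gave values near those of WT. Mhc was at 1000 to 1356 CPM (median 1192), with a log2 fold change of -0.00 ± 0.04 (adjusted p = 0.949), and Mlc2 at 436 to 624 CPM (0.05 ± 0.05, adjusted p = 0.517). The log2 fold change was 0.12 for wupA, 0.33 for Act88F, 0.07 for up, 0.04 for Act57B and 0.03 for Tm1, with adjusted p from 0.103 to 0.747. The sign of Mhc in this comparison turned with the scaling, for example to 0.01 with the size factors of DESeq2.

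In wakeD2 all 5 glia markers were lower than in WT (median log2 fold change -0.15), and of 7 photoreceptor markers 2 were higher and 3 lower. Of 6 head fat body markers 0 were called (median 0.29), and they summed to 66992 to 100499 CPM against 55286 to 79563 CPM in WT. Both male dosage compensation RNAs were lower, roX1 at a log2 fold change of -0.45 and roX2 at -0.48. Their part in the muscle values was not tested. The wakeD2 values stand beside unequal levels of body RNA. The 5 wakeD2 libraries with the most accessory gland RNA, ZT0, ZT4, ZT8, ZT12 and ZT24 (medians of 12.95 to 47.0 CPM over those genes), held 119 to 134 CPM of Mlc1 and 192 to 235 CPM of Tm2, against at most 113 and 180.1 CPM in the other 7. In CPM, Act87E of wakeD2 did not follow the order of accessory gland RNA. It was highest at ZT8 (124 CPM, median of 12.95 CPM), then at ZT20 (101 CPM, median of 5.89 CPM), ZT0 (98.6 CPM, median of 45.9 CPM) and ZT12 (98.4 CPM, median of 47.0 CPM). The library at ZT24 (median of 28.5 CPM) held 84.0 CPM and that at ZT32 (median of 1.23 CPM) held 85.9 CPM, and Act87E was lowest, at 58.0 CPM, at ZT36, whose median was 0. Act87E also differed among the hours in WT, which held 83.1 CPM at ZT8, 83.2 at ZT20, 62.5 at ZT0 and 55.2 at ZT12. At ZT24, ZT32 and ZT36 WT held 59.3, 78.3 and 61.4 CPM. The order over the wakeD2 libraries therefore includes the hour of the day. Beside WT at the same timepoint, Act87E of wakeD2 was at 98.4 against 55.2 CPM at ZT12 and 98.6 against 62.5 at ZT0. It was at 85.9 against 78.3 CPM at ZT32 and 58.0 against 61.4 at ZT36, where accessory gland RNA was lowest. At ZT4 (median of 15.1 CPM) it was at 90.4 against 73.2 CPM. The excess over WT at each timepoint was not tested against body RNA. With the summed level of body markers in the model, 0 of the 10 genes passed and 0 had an unadjusted p under 0.05, and the log2 fold change of Act87E was 0.08 (adjusted p = 0.676), that of Mlc1 0.08 (adjusted p = 0.507) and that of Tm2 0.11 (adjusted p = 0.367). With the second sampling day alone, 0 passed and 1 had an unadjusted p under 0.05. Because 11 of the 12 wakeD2 libraries carry this RNA, the genotype and the body RNA can hardly be told apart in these data.

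Set directly against inc1, wakeD2 had 4 of the 10 genes called, 3 higher and 1 lower, against 40.8% of all genes tested, 21.3% higher and 19.5% lower. Act88F was higher by 0.86 ± 0.14, Act87E by 0.45 ± 0.07 and Mhc by 0.20 ± 0.04 on the log2 scale, and Mlc1 fell by 0.14 ± 0.04 (log2 fold change -0.14), with adjusted p of 9.95e-06, 7.51e-06, 3.60e-05 and 0.0113. The same difference in body RNA lies between these groups.

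**Figure D3:**
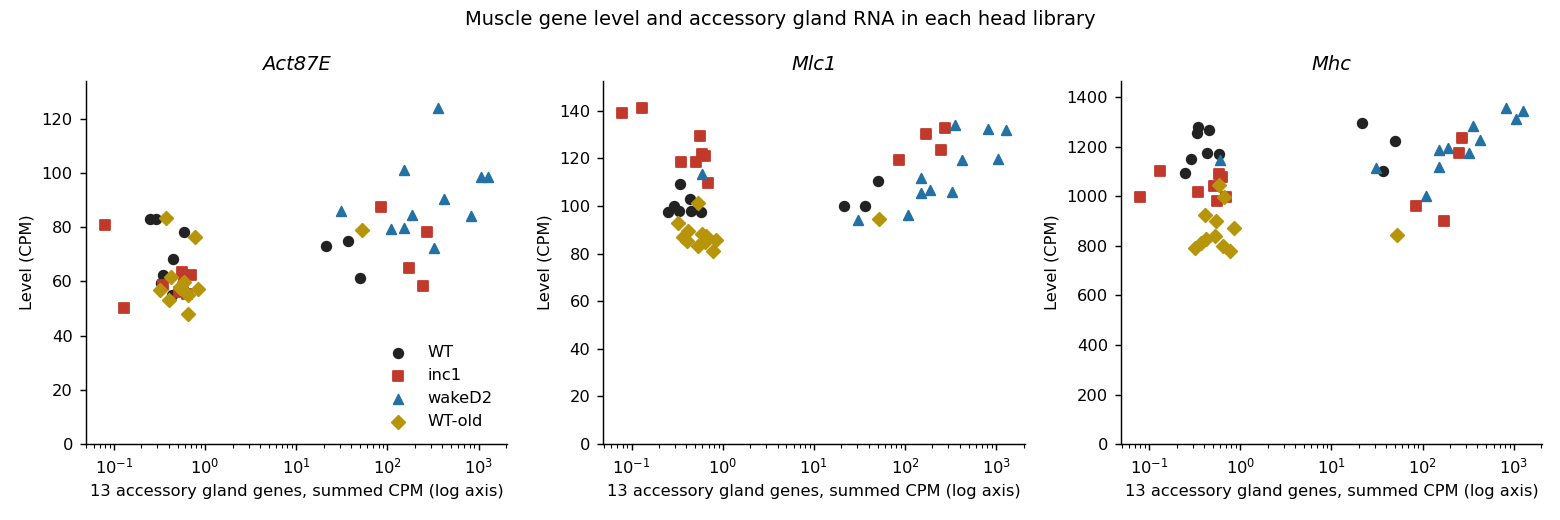
Level of Act87E, Mlc1 and Mhc in CPM (y axes, from 0) against the summed CPM of 13 accessory gland genes (x axis, log scale), 1 point per library, 4 groups. The wakeD2 libraries spread to the right, up to 1272 CPM, and 1 of them lies with the bulk of the other groups at the left.

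The third comparison asked how the level changed between Day 27 and Day 49 in the WT strain. All 6 genes called were lower at Day 49 and 0 were higher, against 27.7% of all genes tested, 12.4% lower and 15.3% higher. The median log2 fold change of the 10 genes was -0.16, and that of all genes 0.00. The thick filament genes were among the 6, and myosin heavy chain showed the smallest adjusted p of the 10.

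Mhc ranged from 779 to 1045 CPM in WT-old (median 840.2), and every WT-old library lay below the lowest WT library at 1093 CPM. Its log2 fold change was -0.48 ± 0.04 (adjusted p = 3.17e-12). Mlc2 ranged from 357 to 478 CPM in WT-old (median 426) against 447 to 507 CPM in WT (median 491), with a log2 fold change of -0.22 ± 0.05 (adjusted p = 0.000249). Mlc1 ranged from 80.9 to 101 CPM in WT-old (median 87.2), with 11 of 12 libraries below every WT library and a log2 fold change of -0.19 ± 0.05 (adjusted p = 0.00118). For these 3 genes WT-old was the lower at 10 of 10 shared timepoints.

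Of the troponins and tropomyosins, Tm1 and troponin T were called. Tm1 ranged from 232 to 287 CPM in WT-old (median 259) against 267 to 293 CPM in WT (median 280.4), with a log2 fold change of -0.10 ± 0.03 (adjusted p = 0.00554). Troponin T (up) ranged from 191 to 246 CPM in WT-old (median 212) against 235 to 274 CPM in WT (median 237), with a log2 fold change of -0.16 ± 0.05 (adjusted p = 0.0183). Without the WT library at ZT16 this call was lost (adjusted p = 0.0542), and no other call of the 10 genes in the 3 comparisons with WT was lost when 1 library was left out. Tm2 missed the threshold, at -0.12 ± 0.05 (adjusted p = 0.0599), and passed it under 7 of 12 alternatives, among them DESeq2 (adjusted p = 0.0328), and in 17 of the 46 fits that left out 1 library. Troponin I (wupA), at -0.08, did not pass (adjusted p = 0.333).

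Among the actins, Act88F was called in WT-old, and Act87E and Act57B were not. Differences between the actins were not tested. Act88F was at 1.36 to 2.94 CPM (median 1.92), with 12 of 12 libraries under the WT median of 3.52 CPM and a log2 fold change of -0.73 ± 0.15 (adjusted p = 0.00026). Act57B, the most abundant actin of the 10 genes, was at 866 to 1669 CPM (median 1141) against 908 to 1354 CPM in WT (median 1032), with a log2 fold change of 0.10 ± 0.07 (adjusted p = 0.344), and its sign turned to -0.10 in the first sampling day alone. Act87E was at 48.2 to 83.3 CPM (median 57.8), with a log2 fold change of -0.16 ± 0.08 (adjusted p = 0.129). With the level of body markers in the model, Act87E was lower in WT-old by 0.23 on the log2 scale (log2 fold change -0.23, adjusted p = 0.00579), and 8 of the 10 genes were called. The ratio of Act87E to Act57B was 0.0474 to 0.0658 in WT-old against 0.0607 to 0.0772 in WT.

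With the libraries of 0, 4 and 8 h alone, in which both ages held yolk protein RNA, Mhc (log2 fold change -0.46, adjusted p = 8.88e-05), Act88F (-0.95, adjusted p = 0.00212) and Mlc2 (-0.23, adjusted p = 0.0356) remained called. In those libraries up was at -0.22, Mlc1 at -0.20 and Tm1 at -0.11, with adjusted p of 0.060, 0.0668 and 0.126. With the second sampling day alone, Mhc (-0.47, adjusted p = 1.31e-05) and Act88F (-0.62, adjusted p = 0.0443) were the calls that remained. All 7 photoreceptor markers were also lower in WT-old, with a median log2 fold change of -0.33.

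**Figure D4:**
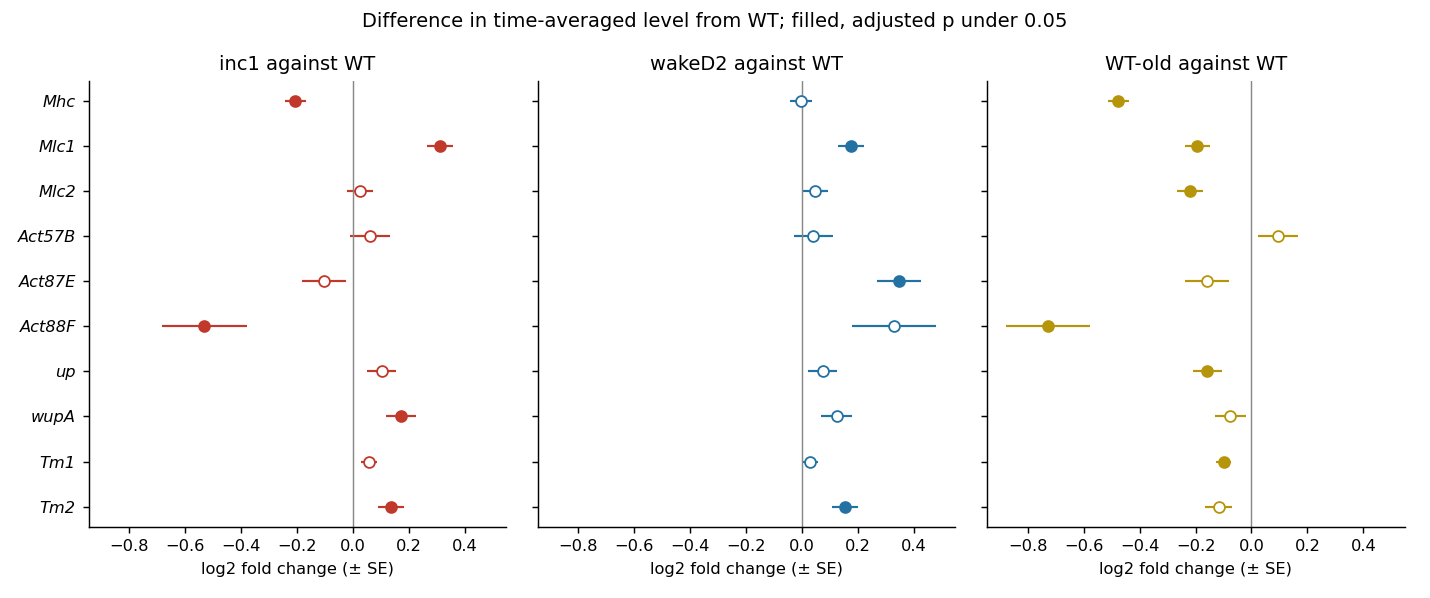
Log2 fold change of the time-averaged level from WT (x axis, point, with SE as bars) for the 10 muscle genes (y axis) in inc1, wakeD2 and WT-old. Filled points passed an adjusted p under 0.05, and Mhc sits at -0.21, -0.00 and -0.48 in the 3 panels.

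Other genes of the sarcomere and genes listed for muscle calcium and energy were counted from fixed lists. The calcium and energy list also holds regulators such as Mef2, bru1 and salm. Whether each listed gene is restricted to muscle in the head was not tested. In inc1, 4 of 16 tested sarcomere genes outside the 10 were higher and 5 lower, against 15.1% and 18.4% of all genes tested. Those with the smallest adjusted p were TpnC41C (log2 fold change 0.49), TpnC73F (0.38) and the muscle LIM protein Mlp60A (0.24) among the higher, and the myosin light chain kinase Strn-Mlck (-0.49), the muscle actin Act79B (-0.69) and obscurin, Obsc (-0.39), among the lower. Of 10 calcium and energy genes tested, the calcium release channel RyR (-0.50) and the transcription factor salm (-0.41) were lower and the muscle transcription factor Mef2 (0.14) was higher. The median log2 fold change was -0.04 for the sarcomere list and -0.08 for the calcium and energy list, and 0.02 for all genes. The named sarcomere genes that were higher have 1059 to 2839 exon bases. Of the lower genes, Strn-Mlck has 32768, Obsc 13261 and RyR 16405 exon bases. Act79B, also lower, has 1619, and Mef2, which was higher, has 9188. Whether exon length or RNA quality has a part in these values was not tested.

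In wakeD2, 3 of the 16 sarcomere genes were higher and 0 lower, against 12.1% and 11.6% of all genes tested: the Z-disc proteins Zasp52 (0.39) and Zasp66 (0.17), and TpnC73F (0.34). The RNA-binding protein gene bru1, at 0.34, was the single call of the calcium and energy list. Both medians, 0.02 and 0.01, were near that of all genes, -0.01.

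WT-old had 9 of the 16 sarcomere genes lower and 2 higher, against 12.4% and 15.3% of all genes tested. Obscurin (-0.50), Mf (-0.29) and the troponin C gene TpnC25D (-0.36) led the lower ones, while TpnC73F (0.57) and Act79B (0.31) were higher. Of the calcium and energy genes, 6 of 10 were lower and 0 higher, with the calcium pump SERCA (-0.35), RyR (-0.51) and the glycerol-3-phosphate dehydrogenase Gpdh1 (-0.50) first. The medians of the lists were -0.19 and -0.18, and that of all genes was 0.00. These values include the WT-old libraries with little yolk protein RNA, and the light hours alone were not tested for these lists. Gpdh1 ranged from 327 CPM at ZT44 to 700 CPM at ZT28 in WT-old, against 562 to 726 CPM in WT. In WT-old, SERCA was lowest at ZT12, also an hour of less yolk protein RNA, but RyR was lowest at ZT28, a light hour.

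Genes of actin, myosin and proteins that act on actin filaments, listed as non-muscle, went the other way at Day 49. Of 9 such genes tested, 8 were higher in WT-old and 0 lower, against 15.3% and 12.4% of all genes tested, with a median log2 fold change of 0.16 against 0.00 for all genes. The cytoplasmic actin Act5C rose from 953 to 1256 CPM in the mean (log2 fold change 0.40, adjusted p = 2.24e-10), the cofilin gene tsr by 0.28 and the non-muscle myosin regulatory light chain sqh by 0.24 on the log2 scale. In inc1, 2 of the 9 were lower, the light chain Mlc-c (-0.20) and sqh (-0.10), and in wakeD2 3 were lower, Arpc1 (-0.12), Arp2 (-0.08) and Mlc-c (-0.09). The difference between the lists was not tested, and neither were the light hours of WT-old alone for the non-muscle list.

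**Figure D5:**
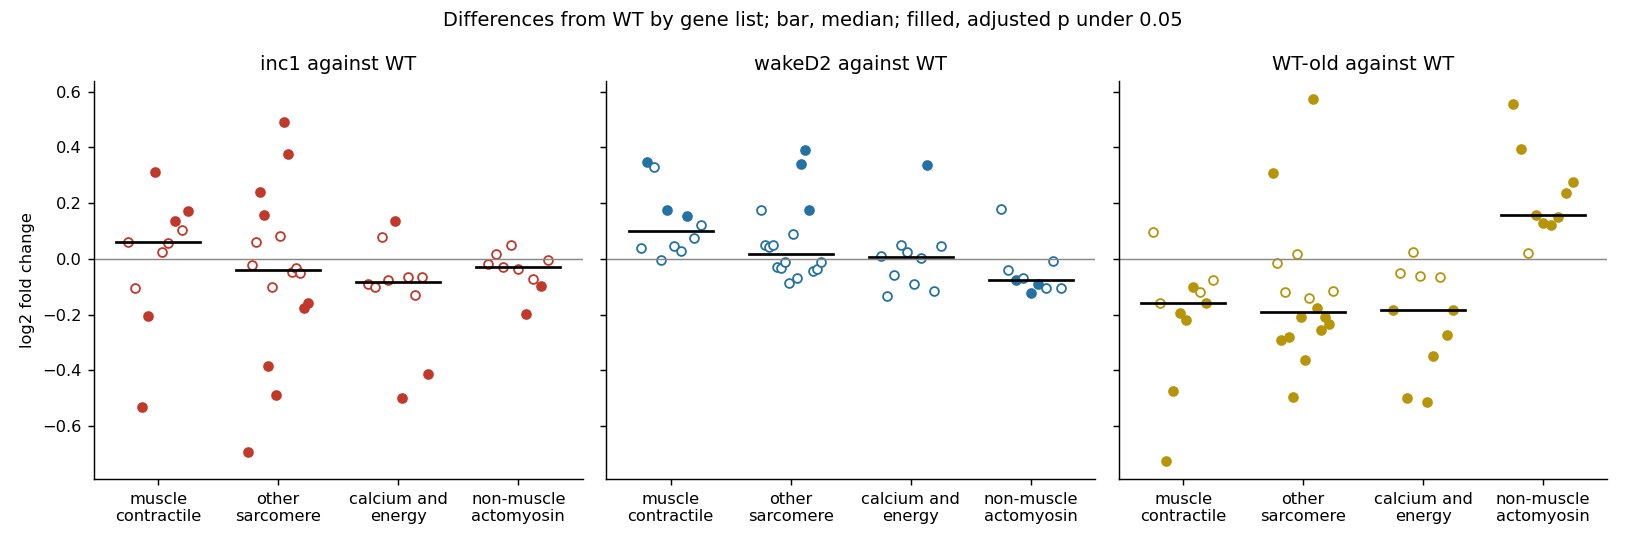
Log2 fold change from WT (y axis) of every tested gene of 4 lists (x axis) in inc1, wakeD2 and WT-old, with the median of each list as a bar and filled points for an adjusted p under 0.05. At Day 49 the 3 muscle lists have medians of -0.16, -0.19 and -0.18, and the non-muscle list has a median of 0.16.

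The collection over 2 days also asked which genes oscillate. A 24 h cosine fitted to each group was called for 0 of the 10 genes in WT, inc1, wakeD2 and WT-old, against 6.11%, 5.03%, 5.92% and 19.6% of all genes tested. At an unadjusted p under 0.05 there was 1 gene in WT, Act88F (log2 amplitude 0.55, adjusted p = 0.267), and 0 in the other groups. The 24 h rhythm differed from WT for 0 of the 10 genes in inc1, wakeD2 and WT-old, both adjusted and at an unadjusted p under 0.05, against 0.0301%, 0% and 1.65% of all genes.

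Differences among the 6 times of day were tested in the 34 libraries of Day 27 after the values had been seen. They were called for 8 of the 10 genes, Mlc1 and Tm2 not passing, against 71.1% of all genes tested. A pattern with 2 highs a day was noticed in Act57B and wupA, which are among the 8, and their 12 h cosine is therefore given without a test. Act57B averaged 985 ± 46.8 CPM at 0 h and 947 ± 49.6 at 12 h (SD, n = 6 each), and 1297 ± 194 CPM at 8 h and 1135 ± 103 at 20 h (n = 6 each). The fitted 12 h amplitude on the log2 scale was 0.21 for Act57B, with the first high at 6.78 h, and 0.12 for wupA, with the first high at 0.882 h. Of the other 8 genes, a 12 h cosine beside the 24 h cosine was called for 4, against 64.2% of all genes tested. These were Act87E (amplitude 0.22, high at 7.24 h, adjusted p = 0.000268), Mhc (0.09, 1.72 h), Act88F (0.31, 1.39 h) and Tm1 (0.09, 9.02 h). Mlc1, Mlc2, up and Tm2 did not pass, with adjusted p from 0.0741 to 0.609. The fitted highs of Act57B and Act87E lay near the fitted lows of Mhc and wupA, and the mean of Act57B was lowest at lights off and lights on. With samples every 4 h, a 12 h cosine compares the 3 classes of ZT modulo 12 h. The libraries of each class stand together in the order in which the series lists its samples, so that class and any handling in that order cannot be told apart.

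In the same fit, the 24 h cosine was called for 4 of the 10 genes, Tm1 (log2 amplitude 0.08, adjusted p = 0.00405), up (0.11, adjusted p = 0.0265), Tm2 (0.10, adjusted p = 0.0287) and Act57B (0.10, adjusted p = 0.0329), against 33.1% of all genes. Tm1, for example, averaged 303 ± 24.2 CPM at 8 h and 256 ± 7.73 CPM at 16 h (n = 6 and 5). In the 17 Day 27 libraries with little accessory gland RNA, the 12 h cosine was called for Act87E among the 8 genes other than Act57B and wupA, against 50.8% of all genes. Act57B, fitted at an amplitude of 0.20, and wupA, at 0.09, are again given without a test. The 24 h cosine was called there for 0 of 10 (1 at an unadjusted p under 0.05) against 15.2%. Any difference among the times of day was called for 3 of 10, Act57B among them, against 56.2%. In WT-old the 12 h cosine was called for Act87E among the same 8 genes, against 24% of all genes. The fitted amplitude there was 0.18 for wupA and 0.22 for Act57B, given without a test.

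Across the 46 libraries, after the mean of each group was taken off, several of the 10 genes moved together and others did not. Pearson's r was 0.81 for Mlc2 and up, 0.80 for Mlc1 and Mlc2 and 0.80 for the actins Act57B and Act87E, and it was lowest for wupA and Act57B, at -0.28. The genes outside the 10 that were most like their average were CG13449 (r = 0.75), Hsc70-1 (0.74), CG7059 (0.73), the paramyosin gene Prm (0.72), which encodes a core protein of the thick filament, and CG13436 (0.70). These libraries share timepoint, depth and body RNA, and the values are descriptions.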

How the data were processed

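The authors prepared stranded mRNA libraries from pooled heads, aligned single reads to the Release 6.13 fly genome with STAR 2.4.2a after bcl2fastq 2.20, and counted them per gene with featureCounts. The settings for strand and for reads that match several genes are not given in the sources used here. The deposited table holds raw counts per gene, without normalization, for 46 libraries. For 17288 of the 17490 gene identifiers, positions were found in the BDGP6.54 annotation, which uses the same Release 6 assembly. On the annotated spans, Tm1 overlaps genes of the other strand at a mean of up to 8.88 CPM. No library was a copy of another: the smallest chi-square between libraries of 1 group, divided by its degrees of freedom, was 6.24.

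Genes under 1 CPM in more than 28 libraries were removed. Counts were scaled by TMM and tested with edgeR 4.0.16 in R 4.3.3, by the quasi-likelihood test in a model of group and 6 times of day over all 46 libraries. A gene was called at 0.05 after the Benjamini-Hochberg correction for 9969 genes. Standard errors were taken from the fold change and its F statistic. Rhythm was tested by a 24 h cosine and sine per group. Levels in the text are TMM-scaled CPM, except marker sums, which are plain CPM. Tables and plots were made with Python 3.11.15, pandas 2.3.3 and matplotlib 3.10.9. The scripts were tested on simulated data. DESeq2 1.42.0, other scalings and filters, subsets of libraries, body marker level as a covariate and each library left out were alternatives. The members and gene lists were chosen with earlier results of these data known, and the libraries of 0, 4 and 8 h, the yolk protein genes, the 12 h cosine, the class of ZT modulo 12 h, the comparison of wakeD2 with inc1 and the 2 ratios were added after seeing the data. All 10 members are named. Of the other lists, at most the 3 genes with the smallest adjusted p per direction are named. The 6 genes listed for flight muscle are given with their levels. The 5 genes with the highest r to the mean standardised log2 CPM of the members (prior count of 2) are also given. Genes of the lists that had no row in the table under their symbol were not analysed here. Each timepoint is a separate pool, and p-values measure the spread between these libraries.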

Additional observations from a re-analysis of the deposited data

Results flagged for a closer look

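Troponin T (up) in the WT library at ZT32, at 273.6 CPM, stood apart from the other 9 WT libraries, which lay between 235 and 255 CPM. The gap to the nearest library was 0.496 of the whole range, above Dixon's limit for 10 libraries. WT was tested in this way for each of the 10 genes, and chance flags about 1 in 20 such groups. The other groups have more than 10 libraries and were not tested.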

How the results depend on the processing

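The number of genes called moved by more than 1.5 times under several alternatives. For inc1 it was 3333, and it was 1625 with the first sampling day alone, 1915 with the second, 1799 with the libraries of 0, 4 and 8 h and 1817 with time of day left out. For wakeD2 it was 2365, and it was 266 with the second day alone, 573 with body marker level as a covariate, 38 with the libraries low in accessory gland RNA (1 of wakeD2), 1313 with 0, 4 and 8 h, 1418 with time of day left out and 4963 without the filter on low counts. For WT-old it was 2764, and it was 1329 and 1449 with either day alone, 1707 with 0, 4 and 8 h and 1475 with time of day left out. Of the 10 muscle genes, the 5 calls of inc1 became 1 with the first day alone and 3 with the second day, with 0, 4 and 8 h or with time of day left out. The 3 calls of wakeD2 became 0 with the second day alone, with the covariate and with the low-RNA libraries. The 6 calls of WT-old became 3 with 0, 4 and 8 h and 2 with the second day alone. Fewer libraries entered the fits on single days or hours. For the other settings the cause was not tested.

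The log2 fold change of Mhc in wakeD2, -0.00, turned sign to 0.00926 with DESeq2, 0.00925 with RLE size factors, 0.0122 with the 2 groups alone, 0.00716 with the 10 shared timepoints, 0.0199 without the filter, 0.0353 with 0, 4 and 8 h, 0.064 with the first day and 0.00338 with time of day left out, and ranged from -0.0226 to 0.0313 as each library was left out. Other values that turned sign, none of them past the threshold, were Act57B in wakeD2 (-0.11 with the low-RNA libraries) and in WT-old (-0.10 with the first day, -0.0171 with 0, 4 and 8 h), Mlc2 with the second day in inc1 (-0.00176) and wakeD2 (-0.00361), and, with the covariate in wakeD2, Mlc2 (-0.0119), Tm1 (-0.00894) and up (-0.0472). With the low-RNA libraries Act87E in wakeD2 was at -0.12 in place of 0.35, but this and the 0 calls there are values of a single wakeD2 pool, assumed to vary like the other groups, and say nothing of stability.

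The number of genes with a 24 h rhythm was 609 in WT, 501 in inc1, 590 in wakeD2 and 1950 in WT-old. With the class of ZT modulo 12 h as a covariate, added after seeing the data, it was 1347, 1220, 1220 and 3731. It was 360 in WT and 236 in inc1 with that group's libraries alone, 181 in inc1 with the low-RNA libraries, and 389 in wakeD2 and 1204 in WT-old with the 10 shared timepoints. The rhythm of wakeD2 could not be fitted in its 1 low-RNA library.

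The correlation of deviations between libraries of the same timepoint averaged 0.21 between WT and inc1 (over 0.1 at 7 of 10 timepoints), -0.43 between WT and wakeD2 (1 of 10) and -0.09 between WT and WT-old (5 of 10), so the timepoints were not taken to pair the libraries. With timepoint as a replicate block, 3176, 2310 and 2647 genes were called in inc1, wakeD2 and WT-old, of the 10 muscle genes 5, 3 and 6, and Mhc in wakeD2 was at 0.00984.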
